A study of Rattus norvegicus with 24 samples.

Results

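The effect of heroin on the nucleus accumbens (NAc) of rats that had earlier received lipopolysaccharide (LPS) was described from 8 RNA-seq samples, 4 of LPS-Heroin rats and 4 of LPS-Saline rats, out of 24 samples in 6 groups. The members were all samples of these 2 groups, taken by their labels and column names. All were adult male Sprague Dawley rats, 8 weeks old on arrival, and each sample was the NAc of a separate rat. Both groups received 5 intraperitoneal injections of LPS at 250 µg/kg, a bacterial cell wall component that activates Toll-like receptor 4 on innate immune cells. They then received, for 5 days, either heroin rising from 1 to 5 mg/kg per day (LPS-Heroin) or saline (LPS-Saline). The labels put 1 week between LPS and the first heroin injection and killing at 1 h after the last one, whereas the methods of the study give a gap of a few days and a locomotor session between the last injection and killing. The Saline-Heroin and Saline-Saline groups, which had saline in place of LPS, and the Heroin-SA and Saline-SA groups, which self-administered heroin or saline through a jugular catheter and never received LPS, are used below for comparison, with 4 samples each. The methods state more sequenced rats per group than the 4 analysed here.

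The NAc is the ventral part of the striatum. Most of its neurons are GABAergic medium spiny neurons, which receive dopamine from the ventral tegmental area and glutamate from cortex, amygdala, thalamus and hippocampus. Heroin is converted to morphine, which activates the μ-opioid receptor, a receptor coupled to inhibitory G proteins that lowers cyclic AMP and raises dopamine release in the NAc by silencing inhibitory cells in the midbrain. Immediate early genes such as Fos, Arc and Egr1 are transcribed within minutes of synaptic activity through calcium, cyclic AMP and MAP kinase signalling, which act on the transcription factors CREB and SRF at the promoters of these genes.

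Expression was given as FPKM, a fragment count divided by the length of the gene and the size of the library, and fold changes are differences of log2(FPKM + 0.1). The 8 samples held 12662360 to 18850240 reads on genes. The defining markers of medium spiny neurons were present in all 8 samples. Drd1, the D1 dopamine receptor, was at 50.5 to 85.1 FPKM. Ppp1r1b, which encodes DARPP-32, was at 531 to 892 FPKM. Some samples stood apart. LPS-Saline replicate 3 had low cortical markers, with Slc17a7, the vesicular glutamate transporter of cortical neurons, at 91.2 FPKM against 280.5 to 374 FPKM in the other samples. LPS-Heroin replicate 4 had Ttr, the transthyretin of the choroid plexus, at 24.1 FPKM against at most 0.311 FPKM in the other samples. LPS-Heroin replicate 1 had immediate early genes at the level of the LPS-Saline group. Values without LPS-Heroin replicate 1 or LPS-Saline replicate 3 stand beside the results they touch most.

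Of 32545 genes listed, 15069 had a mean of at least 0.5 FPKM and were tested with limma. Differentially expressed genes (DEGs) were those whose unadjusted p did not exceed 0.05 and whose log2 fold change was 0.378 or more in size, which is a 1.3-fold change. There were 345 DEGs, 2.29% of the genes tested, of which 172 were upregulated (1.14%) and 173 downregulated (1.15%). No gene passed the Benjamini-Hochberg adjustment of limma, where the smallest adjusted p was 0.977, and an unadjusted p under 0.05 was found for 693 genes, fewer than the 753 that no effect at all would give. On recovered whole reads with limma-voom 650 genes had an unadjusted p under 0.05 and 0 passed the adjustment. Every statement below that a gene rose or fell rests on the unadjusted thresholds, and the number of DEGs does not by itself separate the groups from chance. Of the 345 DEGs, 247 were protein-coding, 57 were microRNAs or other small noncoding RNAs, and 81 had a mean below 10 reads. The reads of small RNAs in a library of polyadenylated RNA are few, so those genes are not described one by one.

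Immediate early genes were the group with the largest share of DEGs among the 30 gene lists described. Of 25 tested members, 10 fell and 0 rose, with a median log2 fold change of -0.28 over the 25 beside -0.0009 over all genes tested, and 20 of the 25 had a negative fold change. The 10 were Sik1, Nr4a1, Egr2, Fos, Egr4, Arc, Egr1, Nr4a3, Fosb and Junb. Among all genes tested, 1.15% fell.

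The promoters of these genes are known for cyclic AMP response elements (CRE), where CREB binds. Reference promoters of RefSeq build GRCr8, from 250 bases before to 50 bases after the annotated start, were matched by symbol for 9 of the 14 immediate early and MAP kinase feedback DEGs. Fos, Arc, Nr4a3, Dusp4 and Trib1 were not matched. The letters TGACG, the short form of the CRE, read on either strand, were found in 7 of the 9 windows, those of Sik1, Nr4a1, Egr2, Egr4, Egr1, Junb and Dusp5. Of all 33469 windows of the same 300 bases, 21.2% held them. The full CRE, TGACGTCA, which contains the short form, was in 0 of the 9 and in 1.83% of all windows. The AP-1 site, TGANTCA, to which Fos and Jun proteins bind, was in 0 of the 9 and in 7.33% of all windows. The windows of 5 genes are shown because they hold the short CRE of genes that fell, with each one in capitals (CGTCA where it lies on the other strand). They are chr20:9958597-9958896 (minus strand) for Sik1, chr7:134259888-134260187 (plus) for Nr4a1, chr20:21054392-21054691 (minus) for Egr2, chr4:119607768-119608067 (minus) for Egr4 and chr1:262543524-262543823 (plus) for Dusp5.
Sik1: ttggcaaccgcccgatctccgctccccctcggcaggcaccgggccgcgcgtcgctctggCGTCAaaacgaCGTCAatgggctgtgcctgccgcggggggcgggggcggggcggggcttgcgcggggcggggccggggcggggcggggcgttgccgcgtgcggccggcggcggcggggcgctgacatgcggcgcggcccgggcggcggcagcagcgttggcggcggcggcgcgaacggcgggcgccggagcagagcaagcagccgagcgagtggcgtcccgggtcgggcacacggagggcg
Nr4a1: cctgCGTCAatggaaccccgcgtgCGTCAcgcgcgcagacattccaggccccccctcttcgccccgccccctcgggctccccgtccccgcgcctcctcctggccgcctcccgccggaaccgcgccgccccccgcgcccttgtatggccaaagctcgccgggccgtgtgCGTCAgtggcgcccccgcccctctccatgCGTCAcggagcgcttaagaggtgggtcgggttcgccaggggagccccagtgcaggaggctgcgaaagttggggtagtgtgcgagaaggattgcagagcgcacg
Egr2: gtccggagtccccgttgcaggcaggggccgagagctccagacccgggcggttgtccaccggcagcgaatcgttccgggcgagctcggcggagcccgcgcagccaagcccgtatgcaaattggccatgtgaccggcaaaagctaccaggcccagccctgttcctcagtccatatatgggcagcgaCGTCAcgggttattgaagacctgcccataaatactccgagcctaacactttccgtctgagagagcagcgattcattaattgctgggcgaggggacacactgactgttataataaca
Egr4: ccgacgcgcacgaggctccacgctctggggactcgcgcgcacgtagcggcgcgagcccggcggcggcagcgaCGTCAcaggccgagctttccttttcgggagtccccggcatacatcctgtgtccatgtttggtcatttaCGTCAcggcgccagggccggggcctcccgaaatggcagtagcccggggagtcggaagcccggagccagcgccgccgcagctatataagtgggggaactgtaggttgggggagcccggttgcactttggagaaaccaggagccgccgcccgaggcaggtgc
Dusp5: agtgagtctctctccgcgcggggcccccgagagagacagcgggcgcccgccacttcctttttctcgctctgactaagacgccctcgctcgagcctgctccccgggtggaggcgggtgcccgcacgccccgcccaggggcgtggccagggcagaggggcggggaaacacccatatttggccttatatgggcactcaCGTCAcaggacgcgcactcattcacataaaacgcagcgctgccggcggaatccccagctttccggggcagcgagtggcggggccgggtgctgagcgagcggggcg

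In the Nr4a1 window the short CREs began at positions -246, -226, -82 and -53 from the start. In the Egr2 window the short CRE began at -66 and in the Dusp5 window at -55. A match describes the letters of the reference genome and says nothing of which factor was bound in these samples.

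Fos, which encodes a subunit of the AP-1 transcription factor (rn6 chromosome 6, 109300433 to 109303299, plus strand), was at 40.3, 17.4, 13.3 and 16.8 FPKM in LPS-Heroin replicates 1 to 4 and at 39.9, 34.6, 30.7 and 53.5 FPKM in LPS-Saline replicates 1 to 4. LPS-Heroin replicates 2 to 4 were below every LPS-Saline sample, and replicate 1 lay within their range. The group means were 21.96 ± 12.4 and 39.7 ± 9.96 FPKM (SD, n = 4 each), and the log2 fold change -0.96, SE 0.32, had an unadjusted limma p of 0.0151 and, by an exact permutation test of the 8 samples (two-sided, smallest possible p 0.0286), p = 0.114.

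Arc, whose product traffics AMPA receptors at active synapses (rn6 chromosome 7, 115907097 to 115910541, minus strand), was at 76.5, 25.4, 12.1 and 19.1 FPKM in the LPS-Heroin samples and at 73.1, 59.6, 49.1 and 77.2 FPKM in the LPS-Saline samples (log2 fold change -1.30, SE 0.48). Nr4a1, an orphan nuclear receptor induced by cyclic AMP, was at 60.3, 25.7, 19.6 and 23.8 FPKM against 63.1, 53.4, 47.4 and 58.9 FPKM (log2 fold change -0.92, SE 0.30). Egr2, a zinc finger transcription factor, had the largest fall of the list, from 10.5, 9.27, 14.3 and 10.4 FPKM in LPS-Saline to 11.7, 4.01, 2.04 and 3.71 FPKM in LPS-Heroin (log2 fold change -1.31, SE 0.44). In each of these genes LPS-Heroin replicate 1 was at the LPS-Saline level and the other LPS-Heroin samples were below all LPS-Saline samples.

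Egr1, Egr4, Junb, Fosb and Nr4a3 fell, with log2 fold changes of -0.57, -0.60, -0.56, -0.60 and -0.72. Sik1 was the one early DEG whose groups did not overlap. This salt-inducible kinase, which is transcribed through CREB and restrains CREB by phosphorylating its coactivators (rn6 chromosome 20, 10668411 to 10680283, minus strand), was at 5.48, 4.94, 4.86 and 5.301 FPKM in LPS-Heroin against 7.69, 6.79, 6.13 and 7.48 FPKM in LPS-Saline (log2 fold change -0.44, SE 0.10, unadjusted limma p = 0.00233, exact permutation p = 0.0286). Its 4 LPS-Heroin values lay within a narrow range, replicate 1 included.

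**Figure D1:**
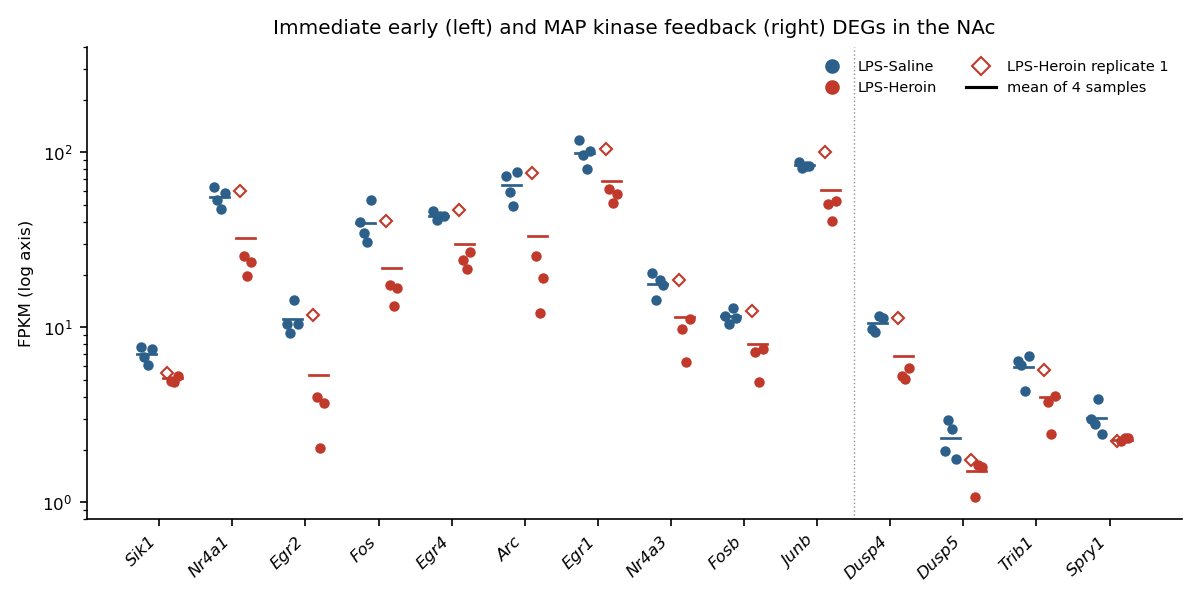
FPKM on a log axis of the 10 immediate early and 4 MAP kinase feedback DEGs, with 1 point per sample, the LPS-Saline group in blue, the LPS-Heroin group in red, LPS-Heroin replicate 1 as an open diamond and a bar at the mean of the 4 samples. LPS-Heroin replicates 2 to 4 lie below every LPS-Saline sample in all 10 early genes, and replicate 1 lies at the LPS-Saline level in 9 of them.

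LPS-Heroin replicate 1 was the highest sample of its group in all 10 early DEGs and lay within or above the LPS-Saline range in 9 of them. LPS-Heroin replicate 3 was the lowest of the 8 samples in all 10. Medium spiny neuron markers were also lowest in replicate 1, where their mean log2 level was 5.65 against 6.02 to 6.24 in the other LPS-Heroin samples and 5.78 to 6.31 in LPS-Saline, and the part of this in the result was not tested. Without replicate 1 the log2 fold changes were -1.30 for Fos, -1.82 for Arc, -1.27 for Nr4a1, -1.78 for Egr2 and -0.47 for Sik1. Without it 12 early genes fell and 1 rose, where 1.61% of all genes fell, and Fosl2 and Npas4 joined the 10 while the riser was Maff. Removing any other sample left 4 to 9 early DEGs, all of them downregulated. There were 5 without LPS-Heroin replicate 2, 4 without LPS-Heroin replicate 3, 6 without LPS-Heroin replicate 4, 5 without LPS-Saline replicate 1 and 5 without LPS-Saline replicate 4. All 10 kept a negative fold change in each of these fits.

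Other members of the list were below the fold limit or did not pass the p limit. Egr3 was at 31.3, 27.6, 24.7 and 26.02 FPKM in LPS-Heroin and 32.7, 29.8, 37.5 and 33.2 FPKM in LPS-Saline (log2 fold change -0.28, SE 0.09), an unadjusted limma p of 0.01497 with a fold change short of the limit. Homer1, a postsynaptic scaffold gene, had a log2 fold change of -0.18 (SE 0.12). Maff, a small Maf transcription factor, went the other way, at 0.793, 4.63, 3.29 and 4.81 FPKM against 1.19, 0.961, 1.47 and 2.02 FPKM (log2 fold change 0.99, SE 0.52), where again LPS-Heroin replicate 1 was unlike the rest of its group, and was at a log2 fold change of 1.55 without that sample.

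Genes that feed back on MAP kinase signalling showed the same direction. Of 17 tested, 4 fell and 0 rose, where 1.15% of all genes fell, with a median log2 fold change of -0.27. Dusp4, a phosphatase of nuclear ERK, was at 11.4, 5.295, 5.05 and 5.83 FPKM in LPS-Heroin and 9.83, 9.43, 11.6 and 11.4 FPKM in LPS-Saline (log2 fold change -0.69, SE 0.24). Dusp5, another ERK phosphatase, was at 1.74, 1.08, 1.64 and 1.601 FPKM against 1.96, 2.94, 2.62 and 1.77 FPKM, without overlap of the groups (log2 fold change -0.58, SE 0.23). Trib1, a pseudokinase that binds MAP kinase kinases, and Spry1, an inhibitor of receptor tyrosine kinase signalling, fell, with log2 fold changes of -0.61 and -0.38. The 4 genes were not stable to the removal of single samples, which left 1 to 5 DEGs in the list: 5 without LPS-Heroin replicate 1, 1 without LPS-Heroin replicate 3, 3 without LPS-Saline replicate 4, and 2 without any one of the other 5 samples. Spry2 (log2 fold change -0.27) and Spred1 (-0.36), further inhibitors of the pathway, had unadjusted limma p values of 0.0284 and 0.0303 but did not reach the fold limit.

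Early genes were lower with heroin in rats without LPS as well. The Saline-Heroin and Saline-Saline groups share no sample with the groups above. There 9 of 25 early genes fell and 0 rose, where 1.67% of all genes fell, and the median log2 fold change over the list was -0.30. All 10 early DEGs had a negative fold change there and 8 were DEGs. Fos was at 17.7, 10.5, 15.5 and 16.9 FPKM in Saline-Heroin and 24.3, 28.6, 25.3 and 39.8 FPKM in Saline-Saline, a log2 fold change of -0.96 (SE 0.20). Arc was at 26.3, 7.48, 30.1 and 26.5 FPKM and 27.5, 50.6, 49.05 and 62.2 FPKM, a log2 fold change of -1.19 (SE 0.44). Egr2 was at 3.99, 1.12, 2.47 and 2.62 FPKM and 4.48, 6.51, 14.5 and 7.48 FPKM, a log2 fold change of -1.64 (SE 0.42). The groups did not overlap in Fos and Egr2, and in Arc the lowest Saline-Saline sample lay below 1 or more Saline-Heroin samples.

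Whether the heroin effect differed between the 2 histories was tested with an interaction term over the 16 samples of the injection experiment. None of the 10 early DEGs passed the thresholds for it. Their interaction terms ran from -0.15 to 0.34 on the log2 scale with SE of 0.23 to 0.71, and the smallest unadjusted limma p was 0.565. SEs of this size leave room for differences in either direction. In self-administering rats, killed directly after the last of their daily sessions, the 10 genes had negative fold changes too, and 8 were DEGs in Heroin-SA against Saline-SA, where 2.41% of all genes fell. Fos there had a log2 fold change of -0.64, Arc of -0.55 and Egr2 of -1.26. Route, dose, time, light cycle, housing and LPS history differ between that experiment and the injections, and the methods describe the locomotor session for the injected rats only. For the 17 MAP kinase feedback genes, 2 fell after saline, where 1.67% of all genes fell, and the median was -0.15. The interaction passed in 2 of the 17, where 2.31% of all genes passed. With self-administration 1 of the 17 fell, where 2.41% of all genes fell, and the median was positive, at 0.115.

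**Figure D2:**
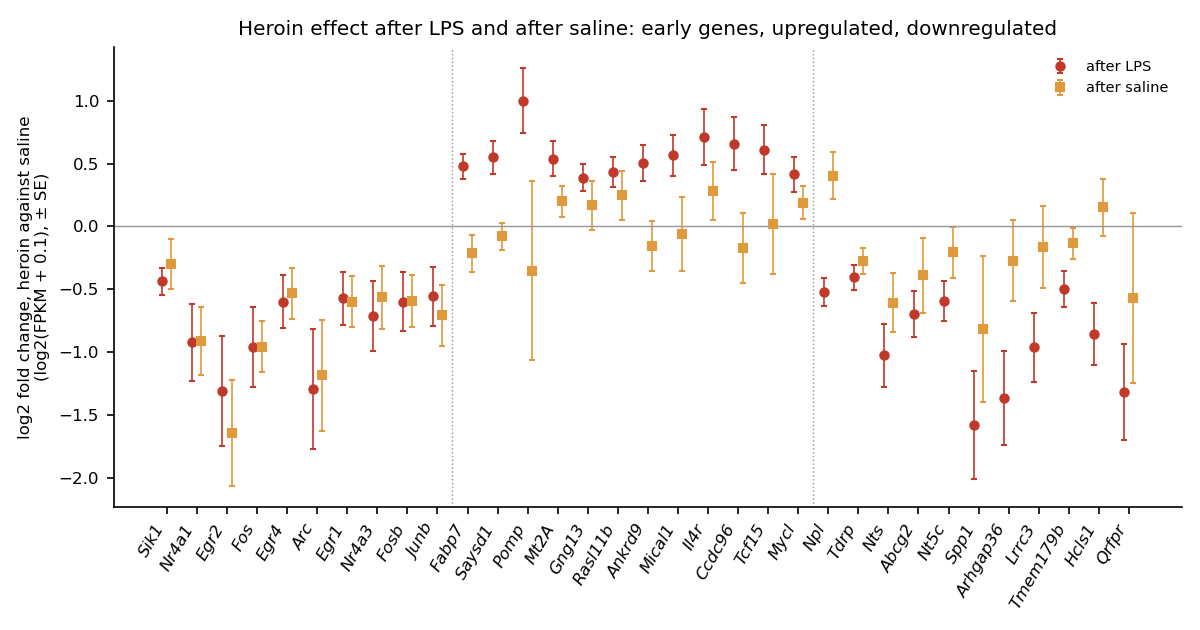
Log2 fold change of heroin against saline after LPS (red circles) and after saline (orange squares), with SE bars, for the 10 immediate early DEGs, the 12 upregulated genes of smallest p and the 12 downregulated ones (Sik1 stands with the early genes). The early genes have negative values of like size in both. The 12 upregulated genes, chosen by their values after LPS, scatter about 0 after saline, 6 of them with the same sign. Over all DEGs tested in both, 103 of 163 upregulated and 110 of 164 downregulated ones had the same sign after saline.

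Beyond the early genes, named genes were the 12 upregulated and 12 downregulated protein-coding DEGs of smallest p among those with at least 10 reads on average and no overlap between the groups. No overlap was seen in 389 genes, 2.58% of those tested, and in 103 of the 345 DEGs. All 24 had the smallest exact permutation p that the design allows, 0.0286, which the rule itself fixes.

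Among upregulated genes, Fabp7, a fatty acid binding protein of astrocytes and radial glia (rn6 chromosome 20, 40769586 to 40773349, plus strand), had the smallest p. It was at 105, 90.6, 103 and 87.6 FPKM in LPS-Heroin and at 61.3, 81.6, 64.7 and 70.2 FPKM in LPS-Saline (log2 fold change 0.48, SE 0.10, unadjusted limma p = 0.000987, exact permutation p = 0.0286). It remained a DEG whichever of the 8 samples was left out. Of 14 astrocyte markers tested 0 rose and 1 fell, where 1.14% and 1.15% of all genes did, and the median log2 fold change was -0.12. The marker that fell was Hes5, a Notch target of glia and progenitors, at 21.4, 12.4, 11.4 and 10.6 FPKM against 19.7, 24.4, 23.6 and 18.9 FPKM (log2 fold change -0.68, SE 0.21), again with LPS-Heroin replicate 1 inside the LPS-Saline range and a log2 fold change of -0.91 without it.

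Mt2A, a metallothionein that binds zinc and is induced by glucocorticoids and metals, was at 57.99, 59.3, 70.999 and 86.4 FPKM in LPS-Heroin against 44.6, 46.5, 40.9 and 55.7 FPKM in LPS-Saline (log2 fold change 0.54, SE 0.14). Il4r, the receptor chain for interleukins 4 and 13, was at 2.95, 5.09, 4.55 and 6.53 FPKM against 2.92, 2.46, 2.93 and 2.795 FPKM (log2 fold change 0.71, SE 0.22), with LPS-Heroin replicate 1 just above the highest LPS-Saline sample. Gng13, a G protein gamma subunit, was at 85.6, 70.9, 68.4 and 67.5 FPKM against 58.3, 62.4, 46.97 and 55.8 FPKM (log2 fold change 0.39, SE 0.11), and it overlaps Chtf18 on the opposite strand. Rasl11b, a Ras-like GTPase, was at 28.5, 32.9, 31.998 and 26.6 FPKM against 21.3, 26.5, 18.04 and 23.5 FPKM (log2 fold change 0.43, SE 0.12). These 4 genes were DEGs after LPS and not after saline, and their interaction terms did not pass the thresholds.

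The remaining upregulated genes were Saysd1, Pomp, Ankrd9, Mical1, Ccdc96, Tcf15 and Mycl. Their log2 fold changes ran from 0.41 for Mycl, a Myc family transcription factor, to 1.001 for Pomp, a proteasome assembly factor. Pomp rested on 6 to 24 reads per sample. Mical1, an actin-oxidizing enzyme, was at 2.73, 2.96, 2.55 and 2.73 FPKM against 1.69, 2.32, 1.66 and 1.66 FPKM and overlaps Smpd2 on the opposite strand. Saysd1 was at 12.1, 9.24, 12.6 and 10.9 FPKM against 6.98, 6.86, 7.54 and 9.15 FPKM. Of the 12 upregulated genes, 9 remained DEGs whichever sample was left out (Gng13 was lost without LPS-Heroin replicate 1 or LPS-Saline replicate 3, Rasl11b without LPS-Saline replicate 3, and Mycl without replicate 4 of either group) and 11 were DEGs on recovered reads.

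Among downregulated genes, Npl, the N-acetylneuraminate pyruvate lyase that breaks down sialic acid (rn6 chromosome 13, 70938082 to 70980913, minus strand), had the smallest p. It was at 4.42, 5.51, 5.65 and 4.93 FPKM in LPS-Heroin and 7.95, 6.92, 7.78 and 6.96 FPKM in LPS-Saline (log2 fold change -0.52, SE 0.11, unadjusted limma p = 0.00102, exact permutation p = 0.0286). Spp1, osteopontin, a secreted phosphoprotein of activated microglia and macrophages, was at 1.23, 0.350, 1.402 and 1.25 FPKM against 1.74, 3.68, 3.11 and 4.26 FPKM (log2 fold change -1.58, SE 0.43, 10 to 89 reads). Hcls1, a cortactin-like protein of blood cells and microglia, was at 2.02, 0.954, 1.67 and 1.53 FPKM against 2.12, 2.905, 2.97 and 3.32 FPKM (log2 fold change -0.86, SE 0.25). Abcg2, a drug efflux pump of the blood-brain barrier, was at 2.61, 2.38, 2.12 and 2.04 FPKM against 4.23, 2.92, 4.85 and 3.34 FPKM (log2 fold change -0.70, SE 0.18). It was the 1 DEG of 16 endothelial and barrier genes tested, where 2.29% of all genes passed in either direction, and the list median was -0.09.

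Arhgap36, an antagonist of protein kinase A, was at 3.26, 1.23, 4.902 and 4.03 FPKM in LPS-Heroin and 8.18, 6.802, 10.5 and 6.58 FPKM in LPS-Saline (log2 fold change -1.36, SE 0.38). Without LPS-Saline replicate 3 its log2 fold change was -1.23. Qrfpr, the receptor of the neuropeptide 26RFa, was at 0.7196, 0.858, 1.64 and 0.488 FPKM against 1.72, 2.28, 3.801 and 1.73 FPKM (log2 fold change -1.32, SE 0.38). Tdrp, Nt5c, Lrrc3 and Tmem179b fell, with log2 fold changes of -0.41, -0.59, -0.96 and -0.4997. Nt5c, a deoxyribonucleotidase, overlaps Armc7 on the opposite strand, and Lrrc3 rested on 7 to 19 reads per sample. Of the 12 downregulated genes, 11 remained DEGs whichever sample was left out (Tdrp was lost without LPS-Heroin replicate 3 or LPS-Saline replicate 4) and all 12 were DEGs on recovered reads.

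**Figure D3:**
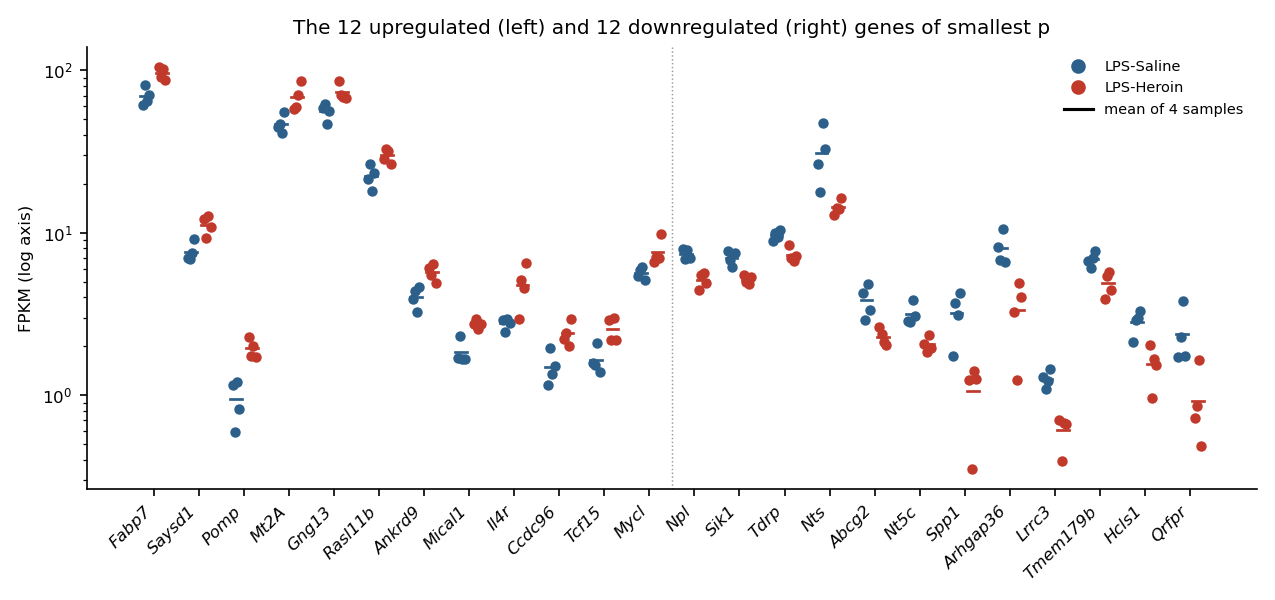
FPKM on a log axis of the 12 upregulated (left) and 12 downregulated (right) genes of smallest p under the naming rule, with 1 point per sample and a bar at the mean of the 4 samples. The groups do not overlap in any of the 24 genes, by the rule that chose them.

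Several neuropeptides fell. Nts, neurotensin, a peptide of medium spiny and septal neurons that modulates dopamine signalling (rn6 chromosome 7, 44111151 to 44121130, minus strand), was at 12.8, 14.1, 14.1 and 16.5 FPKM in LPS-Heroin and 26.5, 17.9, 47.3 and 32.6 FPKM in LPS-Saline (log2 fold change -1.03, SE 0.25, unadjusted limma p = 0.00269, exact permutation p = 0.0286). The LPS-Heroin values lay close together, and the LPS-Saline values spread from 17.9 to 47.3 FPKM with the highest in replicate 3. Without that replicate the log2 fold change was -0.79 and Nts was still a DEG. Nts was also a DEG after saline, with a log2 fold change of -0.61 (SE 0.23). Crh, corticotropin-releasing hormone, was at 3.25, 0.933, 3.502 and 1.54 FPKM against 3.46, 4.68, 8.53 and 6.56 FPKM (log2 fold change -1.40, SE 0.43), and at -1.19 without LPS-Saline replicate 3. Nmu, neuromedin U, was near the detection floor, at 2 to 12 reads per sample (log2 fold change -1.005, SE 0.39). Of 18 interneuron markers and neuropeptides tested, these 3 fell and 0 rose, where 1.15% of all genes fell, with a median of -0.09, and 2 to 4 passed when 1 sample was left out, 2 without LPS-Saline replicate 1, 2 or 3. Cck, at 423, 406, 266 and 379.5 FPKM against 333, 315, 105 and 268 FPKM, did not pass (log2 fold change 0.64, SE 0.34).

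Markers of the septum, ventral forebrain and hypothalamus, regions that border the NAc, had the lowest median of all lists, -0.43 over 23 tested genes. Of these 4 fell and 0 rose, where 1.15% of all genes fell, and the number ranged from 2 without LPS-Heroin replicate 2 to 6 without LPS-Saline replicate 1. Gpr101, an orphan receptor, was at 9.31, 11.8, 8.15 and 8.74 FPKM against 14.2, 13.2, 23.2 and 11.2 FPKM (log2 fold change -0.66, SE 0.21). Dlk1, a Notch ligand homologue, was at 10.7, 7.34, 17.6 and 10.3 FPKM against 17.6, 16.97, 33.5 and 14.6 FPKM (log2 fold change -0.83, SE 0.31). Avp, vasopressin, rested on 1 to 16 reads per sample (log2 fold change -1.59, SE 0.501), and Gbx2 on 6 to 51 reads (log2 fold change -1.40, SE 0.56). After saline the median of the list was -0.45 and 2 of 23 genes fell, where 1.67% of all genes fell. In Heroin-SA against Saline-SA the median was -0.34 and 3 of 23 fell, where 2.41% of all genes fell. For the interaction, 0 of the 23 passed.

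The levels of regional markers differed between samples. The mean log2 level of the septal, ventral forebrain and hypothalamic list was 2.999 in LPS-Saline replicate 3 and 2.03 to 2.498 in the other LPS-Saline samples, against 1.56 to 2.33 in LPS-Heroin. The cortical glutamatergic list, of which 0 of 14 tested genes passed, was at 1.98 in LPS-Saline replicate 3 and at 3.24 to 3.55 in the other 7 samples. The summed level of the septal list ran from 252.1 to 362 FPKM in LPS-Heroin and from 286 to 476 FPKM in LPS-Saline. Arhgap36 and Qrfpr, like Nts and Crh, were highest in LPS-Saline replicate 3. The part of dissection in these 4 genes and the septal list was not tested. Without LPS-Saline replicate 3, 2 of the 23 genes fell (Gpr101 and Avp) where 0.85% of all genes fell, the median of the list was -0.20, and the median of the cortical list went from 0.55 to 0.15. In bulk tissue fewer cells of a type and less RNA per cell cannot be told apart.

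**Figure D4:**
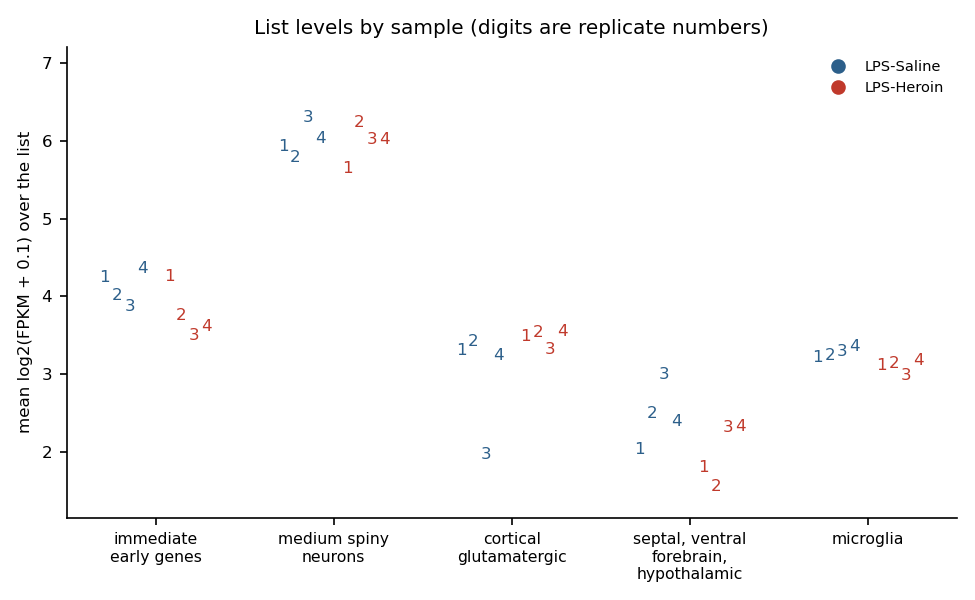
Mean log2(FPKM + 0.1) over the tested genes of 5 lists in each of the 8 samples, drawn as replicate numbers, LPS-Saline in blue and LPS-Heroin in red. LPS-Saline replicate 3 stands apart in the cortical list at 1.98, LPS-Heroin replicate 1 lies with the LPS-Saline samples in the early gene list, and the microglia levels of LPS-Heroin, up to 3.18, lie below those of LPS-Saline, from 3.22.

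Of 18 tested microglial markers 3 fell and 0 rose, where 1.15% of all genes fell, 15 had a negative fold change, and the median was -0.10. The mean log2 level of the list was 2.99 to 3.18 in LPS-Heroin and 3.22 to 3.36 in LPS-Saline, without overlap. Their summed level overlapped, at 258 to 294 FPKM in LPS-Heroin and 282 to 298 FPKM in LPS-Saline. P2ry13, a purinergic receptor of resting microglia, was at 3.69, 3.86, 2.66 and 2.58 FPKM against 6.28, 4.13, 4.88 and 4.46 FPKM (log2 fold change -0.62, SE 0.19). P2ry12, the related receptor that guides microglial processes to ADP, was at 11.5, 19.6, 12.2 and 8.76 FPKM against 19.9, 13.8, 23.6 and 19.99 FPKM (log2 fold change -0.60, SE 0.24). Itgam, the integrin subunit CD11b, was at 1.43, 1.58, 0.831 and 1.39 FPKM against 1.77, 2.17, 1.83 and 1.84 FPKM (log2 fold change -0.54, SE 0.23). P2ry12 and P2ry13 lie within Med12l on the opposite strand and Itgam overlaps Itgax, so their reads are uncertain if counting ignored strand or shared exons. In this list 1 DEG was left, P2ry13, without LPS-Heroin replicate 1, 3 or 4 or LPS-Saline replicate 3 or 4, and 2 without LPS-Saline replicate 1 or 2. Tmem119, another microglial marker, was at 15.7, 14.9, 16.7 and 18.5 FPKM against 15.1, 15.2, 14.9 and 9.62 FPKM (log2 fold change 0.28, SE 0.15).

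Of 28 cytokine, Toll-like receptor and NF-κB genes tested, 1 rose and 2 fell, where 2.29% of all genes passed in either direction, with a median of -0.06. Nfkbia, the inhibitor of NF-κB, rose, at 17.7, 23.3, 25.7 and 28.9 FPKM against 18.99, 15.4, 15.9 and 22.01 FPKM (log2 fold change 0.39, SE 0.16). Traf5, a signalling adaptor of tumour necrosis factor receptors, fell, with 9 to 25 reads per sample (log2 fold change -0.92, SE 0.29). Tirap, an adaptor of Toll-like receptors 2 and 4, fell (log2 fold change -0.62, SE 0.27), with LPS-Saline replicate 3 at 3.697 FPKM and the other LPS-Saline samples at 1.71 to 1.83 FPKM. Myd88, the common adaptor of Toll-like receptors, had a log2 fold change of -0.31 (SE 0.15) and Ptgs2, cyclooxygenase 2, of -0.44 (SE 0.20), and neither passed. Of 24 interferon and antigen presentation genes 0 passed, with a median of -0.02. One or 2 of the 3 cytokine list DEGs were lost without 6 of the 8 samples, and 1 was left without LPS-Heroin replicate 4 or LPS-Saline replicate 2. Ifit3, an interferon-stimulated gene, was at 0.362, 2.402, 2.79 and 4.74 FPKM against 1.27, 0.509, 0.5697 and 0.749 FPKM (log2 fold change 1.27, SE 0.66).

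Of 27 tested rows of glucocorticoid response genes, where 3 symbols have 2 gene identifiers each, 3 rose and 0 fell, where 1.14% of all genes rose, and 20 had a positive fold change (median 0.12). They were Mt2A, Nfkbia and Map3k6. Map3k6, a stress-activated kinase, was at 0.3702, 0.968, 1.41 and 0.922 FPKM against 0.3597, 0.302, 0.446 and 0.385 FPKM (log2 fold change 0.995, SE 0.42), with LPS-Heroin replicate 1 at the LPS-Saline level and a log2 fold change of 1.33 without it. Ddit4, an inhibitor of mTORC1, was at 74.4, 80.96, 83.8 and 79.6 FPKM against 61.2, 57.6, 64.02 and 76.8 FPKM (log2 fold change 0.30, SE 0.09), an unadjusted limma p of 0.008099 below the fold limit. Fam107a, an actin regulator of neurons and glia, had log2 fold change 0.31, SE 0.10. The list had 1 DEG without LPS-Heroin replicate 2, 3 or 4 or LPS-Saline replicate 2 or 3, and 4 without LPS-Saline replicate 4.

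Among 15 GABA receptor genes tested, 1 rose and 2 fell, where 1.14% and 1.15% of all genes did, with a median of 0.003. With 1 sample left out, 0 to 3 passed. Gabrb2, the β2 subunit, fell and was at 15.9, 17.3, 16.4 and 16.2 FPKM against 21.5, 26.01, 32.99 and 17.5 FPKM (log2 fold change -0.53, SE 0.17). Gabra5, the α5 subunit of extrasynaptic receptors, rose, at 24.2, 35.5, 32.1 and 29.8 FPKM against 25.9, 27.1, 17.5 and 21.3 FPKM (log2 fold change 0.41, SE 0.16). Without LPS-Saline replicate 3 Gabra5 went to 0.29 and Gabrb2 to -0.377, both short of the fold limit, and Gabra5 also lost its call without LPS-Heroin replicate 2, 3 or 4 or LPS-Saline replicate 4.

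Among 19 serotonin, muscarinic and nicotinic receptors tested, 1 rose and 0 fell, where 1.14% and 1.15% of all genes did, with a median of 0.05. The 1 DEG was Chrna5, the α5 nicotinic receptor subunit, at 5.74, 8.56, 5.71 and 7.096 FPKM against 4.74, 5.77, 2.19 and 2.85 FPKM (log2 fold change 0.87, SE 0.29). Without LPS-Saline replicate 3 the log2 fold change of Chrna5 was 0.63. The list had 2 DEGs without LPS-Heroin replicate 1, 2 or 3 or LPS-Saline replicate 2 or 4. Of 24 glutamate receptor genes 0 passed. Grin2a, the GluN2A subunit, was at 8.22, 9.48, 4.37 and 5.05 FPKM against 7.06, 5.596, 7.21 and 6.12 FPKM, a log2 fold change of -0.004 (SE 0.24). Grin2d, the GluN2D subunit, was at 2.89, 2.69, 3.92 and 4.06 FPKM against 3.01, 5.03, 6.68 and 3.43 FPKM (log2 fold change -0.36, SE 0.26). Htr2a, the serotonin 2A receptor, had a log2 fold change of 0.11 (SE 0.17) and Ddc, aromatic L-amino acid decarboxylase, of -0.21 (SE 0.26). After saline, all 4 were DEGs. Their log2 fold changes there were 0.66 (SE 0.23) for Grin2a and -0.73 (SE 0.25) for Grin2d. Those of Htr2a and Ddc were 0.54 (SE 0.18) and -0.78 (SE 0.19). The paper counts these 4 genes among those that LPS without heroin had already altered, with Saline-Saline rats as the reference. By that account the LPS-Saline level used here as the comparator was itself shifted. The difference of LPS-Saline from Saline-Saline is not reported here for these genes. The interaction terms were -0.66 (SE 0.36) for Grin2a, 0.36 (SE 0.39) for Grin2d, -0.42 (SE 0.26) for Htr2a and 0.57 (SE 0.31) for Ddc, and by limma with Benjamini-Hochberg adjustment none passed.

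The opioid system, which heroin acts on, did not pass in any of its 8 tested genes, with a median of -0.21. Oprm1, the μ-opioid receptor, was low at 0.896, 0.772, 0.603 and 0.515 FPKM against 1.34, 0.652, 1.65 and 0.576 FPKM (log2 fold change -0.44, SE 0.39). Penk, proenkephalin, was at 268, 394, 388 and 313 FPKM against 359, 331, 473 and 411 FPKM (log2 fold change -0.21, SE 0.15). Pdyn, prodynorphin, had log2 fold change -0.29, SE 0.18. Oprl1, the nociceptin receptor, was lower in all 4 LPS-Heroin samples, at 6.84, 7.38, 7.59 and 7.54 FPKM against 8.59, 9.27, 8.03 and 7.95 FPKM, by less than the fold limit (log2 fold change -0.20, SE 0.09).

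Lists with 0 DEGs were 18 of the 30. Beside those above they were the medium spiny neuron markers (18 tested, median -0.01), dopamine and monoamine genes (9), circadian clock genes (18), heat shock and cold-inducible genes (15), integrated stress response genes (18), oligodendrocyte and precursor markers (17), fibroblast and mural cell markers (14), choroid plexus markers (3), ependymal markers (3), red blood cell genes (4), cAMP signalling genes (27), hedgehog, Notch and Wnt genes (29), neurotrophic factors and receptors (15) and mitochondrial respiratory chain genes (90). Red blood cell genes had a median of 0.49, and Hbb, β-globin, was at 187, 137, 237 and 179.9 FPKM against 81.3, 110.2, 103 and 293 FPKM. Of 105 cytosolic ribosomal protein genes 3 rose and 2 fell, where 1.14% and 1.15% of all genes did. A positive fold change was seen in 82 of the 105 and a negative one in 23, with a median of 0.08. Rps19, at 134, 193, 279.7 and 176 FPKM against 118, 128, 152 and 91.96 FPKM (log2 fold change 0.65, SE 0.22), and Rpl12 belong to families with many near-identical pseudogenes, so their counts are uncertain, and this list had 1 DEG without LPS-Heroin replicate 3, 2 without LPS-Heroin replicate 1 or LPS-Saline replicate 2, 3 without LPS-Heroin replicate 2 or LPS-Saline replicate 3, and 6 without LPS-Saline replicate 1.

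**Figure D5:**
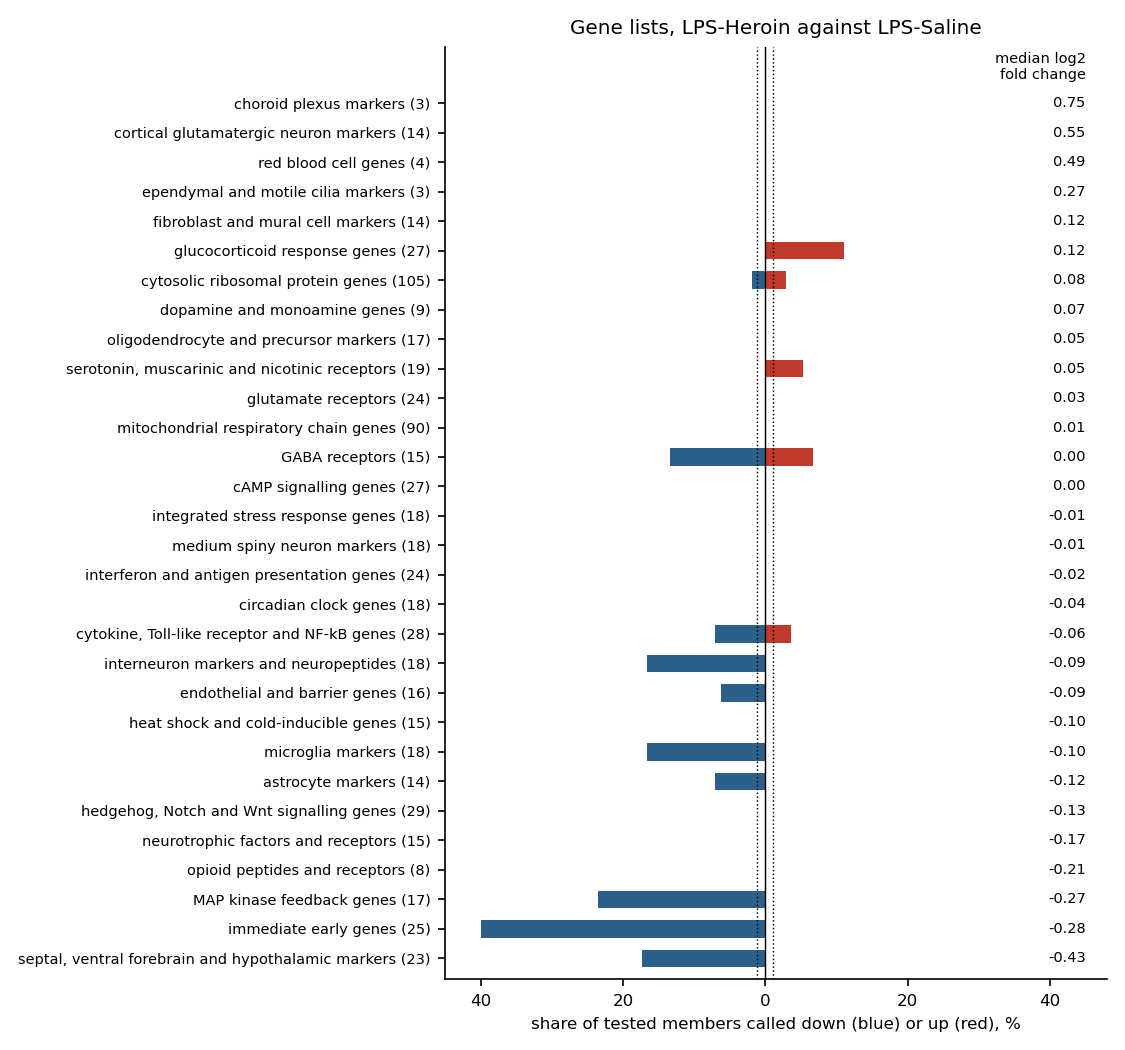
Share of the tested members of each of 30 lists (number tested in parentheses) called upregulated (red, right) or downregulated (blue, left) in LPS-Heroin against LPS-Saline, with dotted lines at the shares of all genes, 1.14% and 1.15%, and the median log2 fold change of the list at the right. Immediate early genes have the largest share, 10 of 25.

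Across all DEGs, the direction was compared with the heroin effect in rats without LPS. Of 345 DEGs, 327 were also tested there, and 213 of them (65.1%) had the same sign, beside 54.4% of the 14802 genes tested in both. Upregulated DEGs had the same sign in 103 of 163 and downregulated DEGs in 110 of 164. DEGs after LPS that were also DEGs after saline, where 3.07% of genes were called, numbered 38, which is 11.6% of the 327 and 8.48% of the 448 DEGs after saline that were tested in both, and 30 of the 38 had the same direction. Of the named genes of smallest p, 10 of the 12 downregulated and 6 of the 12 upregulated had the same sign after saline, and 1 of the 24, Nts, was a DEG there. In Heroin-SA against Saline-SA, 171 of 323 DEGs (52.9%) had the same sign, beside 47.1% of all genes tested in both.

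The LPS by heroin interaction passed the thresholds in 349 of 15113 genes, 2.31%, with 191 positive and 158 negative terms. By limma with Benjamini-Hochberg adjustment none passed (smallest adjusted p 0.163). An unadjusted limma p under 0.05 was found for 607 genes, a share below the 0.05 that no interaction at all would give. The 3 positive terms of smallest p under the naming rule were those of Ppih, Cav1 and Saysd1, and the negative ones those of Bivm, Epha6 and Htr1f. Cav1, the coat protein of caveolae, had log2 fold changes of 0.08 after LPS and -0.34 (SE 0.08) after saline, an interaction of 0.41 (SE 0.11). Ppih, a spliceosomal cyclophilin, had an interaction of 0.41 (SE 0.11) and Saysd1 of 0.63 (SE 0.17). Htr1f, the serotonin 1F receptor, was at 1.72, 1.897, 1.42 and 1.41 FPKM in LPS-Heroin and 2.18, 2.02, 1.99 and 2.18 FPKM in LPS-Saline, and at 2.102, 1.87, 2.55 and 2.04 FPKM in Saline-Heroin and 1.46, 1.602, 1.49 and 1.22 FPKM in Saline-Saline, an interaction of -0.90 (SE 0.21). Epha6, an ephrin receptor, had an interaction of -0.76 (SE 0.18) and Bivm of -0.47 (SE 0.11). The unadjusted limma p of these 6 ran from 0.000514 to 0.00221, and the adjusted p was 0.992 for each.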

How the data were processed

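Total RNA of the NAc, dissected from each rat, was made into directional libraries of polyadenylated RNA and sequenced by a provider. Per the labels and the paper's methods, reads were trimmed with fastp, aligned with HISAT2 to a build the submitters' processing notes name as rn6, and counted with featureCounts. Versions and the strand setting of the counting are not given in the sources used here. The authors deposited FPKM values for 32545 genes. After multiplication by gene length, 100% of the values were whole multiples of 1 step per library (tolerance 0.01 reads), which gave the reads behind each value.

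LPS-Heroin was compared with LPS-Saline by limma-trend (limma 3.58.1, R 4.3.3) on log2(FPKM + 0.1) of the 8 samples, over genes with a mean of at least 0.5 FPKM, without covariates. An interaction term of LPS and heroin came from a fit of 16 samples. The limma p-values were adjusted over all genes tested by the Benjamini-Hochberg method. The script was tested on simulated data. Single genes were compared by exact permutation over 70 assignments. Named genes were the 12 DEGs of smallest p per direction (protein-coding, at least 10 reads on average, ordinary symbol, no overlap between the groups), every DEG of each list with up to 4 further members, Grin2a, Grin2d, Htr2a and Ddc, and 3 interaction genes per direction. Npas4, Ppp1r1b and Slc17a7 fall outside this rule, and Npas4 was chosen after its values were seen. The comparison, gene lists and tests were chosen with earlier results of these data known. No pair of replicates agreed within sampling noise, with a chi-square per degree of freedom of at least 10.3. Deviations of same-numbered samples of the 2 groups correlated at -0.02 to 0.17, the highest for replicate 4. No pairing by number is stated, and the number was taken as a name. Alternatives were other pseudocounts, filters, scalings and thresholds, limma-voom on recovered reads, a replicate block and leaving out each sample. One gene of the lists is not reported here by name.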

Additional observations from a re-analysis of the deposited data

Results flagged for a closer look

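In each group of 4 samples the highest and the lowest were compared with the others by Dixon's 95% limit, which chance alone passes in about 1 of 20 groups. Of 178 groups of values examined 12 passed. Among named genes, Mical1 was at 2.32 FPKM in LPS-Saline replicate 2 and at 1.66 to 1.69 in the others. Tirap, an adaptor of Toll-like receptors, was at 3.70 FPKM in LPS-Saline replicate 3 and at 1.71 to 1.83 in the others. In LPS-Heroin replicate 2, Spp1 was at 0.35 FPKM and Lrrc3 at 0.391, against 1.23 to 1.40 and 0.668 to 0.704 in the other LPS-Heroin samples. Rpl12, a ribosomal protein gene, was at 212 FPKM in LPS-Heroin replicate 4 and at 318 to 343 in the others.

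For the mean log2(FPKM + 0.1) of a list, LPS-Saline replicate 4 was highest of its group in heat shock and cold-inducible genes (5.28 against 4.85 to 4.88), in cytokine, Toll-like receptor and NF-kB genes (1.67 against 1.44 to 1.47) and in ribosomal protein genes (5.99 against 5.85 to 5.87). Oligodendrocyte markers were at 6.41 in LPS-Heroin replicate 4 against 6.80 to 6.84 in its group, and at 7.04 in LPS-Saline replicate 1 against 6.53 to 6.61. Cortical neuron markers were at 1.98 in LPS-Saline replicate 3 against 3.24 to 3.42. The cAMP signalling genes were at 4.59 in LPS-Heroin replicate 2 against 4.43 to 4.45. The part of these samples in the heroin comparison was examined by leaving each one out.

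The unadjusted thresholds of the interaction were passed by 2.31% of all genes tested and by 73 of the 336 DEGs tested for it. Of the 24 DEGs of smallest p, 6 passed them. The terms on the log2 scale were 0.69 (SE 0.19) for Fabp7, 0.63 (SE 0.17) for Saysd1, 0.66 (SE 0.25) for Ankrd9, 0.83 (SE 0.35) for Ccdc96, -0.93 (SE 0.22) for Npl and -1.01 (SE 0.34) for Hcls1. The limma adjusted p was 0.992 for each. These genes were chosen for their heroin effect after LPS, which enters the same term, so the terms are a description.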

How the results depend on the processing

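The 345 DEGs became 548 without a filter on low values, 693 with no fold limit, 55 at an unadjusted p of at most 0.01 and 0 at an adjusted p of at most 0.05. One gene passed the adjustment without LPS-Heroin replicate 2, and 1 without LPS-Saline replicate 1. Under the other pseudocounts, filters, scalings, limma-voom and the fit of all 16 libraries the count was 284 to 356, and it was 295 to 428 with 1 sample left out. With the replicate block, 405 genes passed. The replicate numbers carry no stated pairing, same-numbered samples correlated at -0.02 to 0.17, and 2 of the 4 LPS-Heroin samples correlated best with their own number. The interaction count of 349 became 565 without the filter and was 290 to 446 with 1 sample left out. The share of DEGs with the same sign without LPS, 65.1%, was 70.3% with limma-voom and 58.2% to 68.4% with 1 sample left out. Early gene DEGs numbered 10, and 4 to 13 with 1 sample left out, with the lowest count without LPS-Heroin replicate 3. Of 188 named genes, run under those of 18 alternatives whose filter kept them (178 genes at a mean of at least 1 FPKM), 0 changed direction once called, and 26 of the 60 DEGs passed in every alternative they were run under. With 4 samples per group, the exact permutation p cannot fall below 0.0286, and depth limits what can be seen in genes of few reads.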
